A study of Mus musculus with 2 samples.

Results

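The 9 genes compared here mark T, B and natural killer (NK) lymphocytes, and they were set side by side between liver RNA of Drp1 knockout and of wild type mice. They were Ptprc, Cd3d, Cd3e, Cd3g, Cd4, Cd8a, Cd79a, Cd79b and Nkg7, chosen by name, with every probe that the array's design assigns to them. These were 13 probes of 9 genes, out of 39429 gene probes of 30165 genes. The mice were male C57BL/6J and ate a high-fat diet made with lard (24% fat, 45% of energy) from the age of 4 weeks, for 24 weeks. The wild type group and the knockout group each held 1 one-colour Agilent array of total liver RNA. The series title places the loss of Drp1, the GTPase that divides mitochondria, in the liver, while the labels give neither the allele nor a promoter that drives the deletion. They also do not say whether RNA of several animals was pooled, or whether these livers were taken after fasting or refeeding.

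Lymphocytes are a minority of the cells of a liver, in which hepatocytes dominate. Ptprc encodes CD45, the membrane phosphatase of all nucleated blood cells, which sets the activity of Src-family kinases at antigen receptors. The CD3 delta, epsilon and gamma chains (Cd3d, Cd3e, Cd3g) pair with each other and carry the signal of the T cell receptor, and CD4 and CD8 are its co-receptors for class II and class I MHC. CD79a and CD79b are the signalling chains of the B cell receptor. Nkg7 encodes a membrane protein of the cytotoxic granules of NK cells and killer T cells.

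The probes that the results turn on are 60 bases long, and their sequences are those of the deposited files, with positions in mm9 as the files give them. Exon and UTR annotation of that build was not used here, so each is placed by its position in the transcript as the design counts it. The first sequences shown are the 3 probes that were most clearly higher in the knockout, printed in lower case with no part marked. The Ptprc probe lies at transcript position 3959 (chr1:139961083-139961142, minus strand), the Cd3d probe at 537 (chr9:44794171-44794402, plus strand) and the Nkg7 probe at 473 (chr7:50693148-50693207, plus strand). The Cd3d probe's 60 bases are spread over 232 bases of the genome, so it bridges a gap between exons.
Ptprc at 3959: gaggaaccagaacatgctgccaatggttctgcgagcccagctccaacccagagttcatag
Cd3d at 537: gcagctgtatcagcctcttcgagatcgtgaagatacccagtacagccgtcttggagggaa
Nkg7 at 473: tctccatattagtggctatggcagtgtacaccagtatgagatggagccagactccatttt

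A further set is shown because these probes share a feature that the choice of genes did not use. The probes of Cd3e at 1374 (chr9:44806828-44806887, minus strand), Cd4 at 3035 (chr6:124814711-124814770, minus strand) and Cd79a at 930 each hold AATAAA, the hexamer that commonly precedes a polyadenylation site. Their last 30 bases follow, with AATAAA in capitals. The files place the Cd79a probe at 930 on chr12:53180558-53180617, whereas the RefSeq table of GRCm38.p6 puts Cd79a on chromosome 7. The placement could not be settled here, and this probe's identity is therefore uncertain.
Cd3e at 1374, bases 31 to 60: taatgcaaaaggcAATAAAgtgtattggct
Cd4 at 3035, bases 31 to 60: acagaaaAATAAAggctataAATAAAatgc
Cd79a at 930, bases 31 to 60: gtgatAATAAAtccttcccaaagcaaaaaa

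The last set comprises probes that were below background on both arrays, shown because they bear on what can be said of Cd4, Cd8a and Cd79a. They lie at Cd4 position 1242 (chr6:124817706-124817765, minus strand), Cd8a position 464 (chr6:71323885-71323944, plus strand) and Cd79a position 321 (chr7:25684357-25684614, plus strand, over 258 genomic bases).
Cd4 at 1242: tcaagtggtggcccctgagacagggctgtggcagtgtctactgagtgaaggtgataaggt
Cd8a at 464: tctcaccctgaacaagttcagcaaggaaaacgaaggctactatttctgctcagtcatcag
Cd79a at 321: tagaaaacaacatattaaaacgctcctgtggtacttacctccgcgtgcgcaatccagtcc

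Levels are given as multiples of the array's own 75th percentile of gene signals, and differences as log2 values, knockout minus wild type. A probe is called detected on an array where the scanner program marked it well above background there, and measured where it was detected on both, which held for 8 of the 13 probes and 7 of the 9 genes. The error beside each value is the scanner program's own estimate for that spot, so it covers measuring error only. With 1 array per group no difference was tested and none has a replicate check. In RNA of whole liver, fewer cells of a type and less RNA per cell cannot be told apart. Levels of different probes are not on a common scale and are not compared.

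The arrays differed as a whole. The 75th percentile of the knockout array was 1.57-fold that of the wild type array, 57.1% of gene probes were detected on it against 50.5%, and the lowest log2 level of a detected probe was -4.76 against -4.08. Dnm1l, which encodes Drp1, differed by -0.21 ± 0.20 at its single probe, which checks nothing, since the deleted part of the gene is not given. All 10 listed hepatocyte markers, which check the liver label, were measured. The wild type array carried skeletal muscle transcripts, with 7 of 10 muscle markers detected there alone.

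The lymphocyte genes did not differ as a block. At least 1.5-fold higher in the knockout were 2 of the 7 measured genes, Ptprc and Cd3d, and 1 of 7, Cd3e, was at least 1.5-fold lower. Over all 15385 measured genes, 8.42% were higher and 13.4% lower by as much. By probe, 3 of 8 were higher and 1 lower, beside 8.6% and 13.5% of all 19470 measured probes. The median difference of the 7 genes was 0.33, beside -0.11 for all measured genes, and single genes ran from -0.67 to 1.20. Among all genes at a 2-fold limit, 2.91% were higher and 3.64% lower, and of the 7 genes Ptprc alone was past it. Scaled to the E1A spike-in spots, all 7 genes were above 0, but so were most others: 58.1% of all genes were then at least 1.5-fold higher and 1.36% lower, against 5 and 0 of the 7. With normexp background correction, 0 of the 7 were past 1.5-fold in either direction, beside 4.28% of all genes higher and 9.52% lower. Centred on the median, 2 were higher and 0 lower, beside 11.2% and 9.55% of all genes. After loess normalization 2 were higher and 1 lower, beside 9.79% and 9.5%. Without a filter on dim probes, 4 of 9 were higher and 2 lower (10.5% and 37.5% of all genes), and with a stricter one 0 and 1 of 4 (5.7% and 11%).

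**Figure D1:**
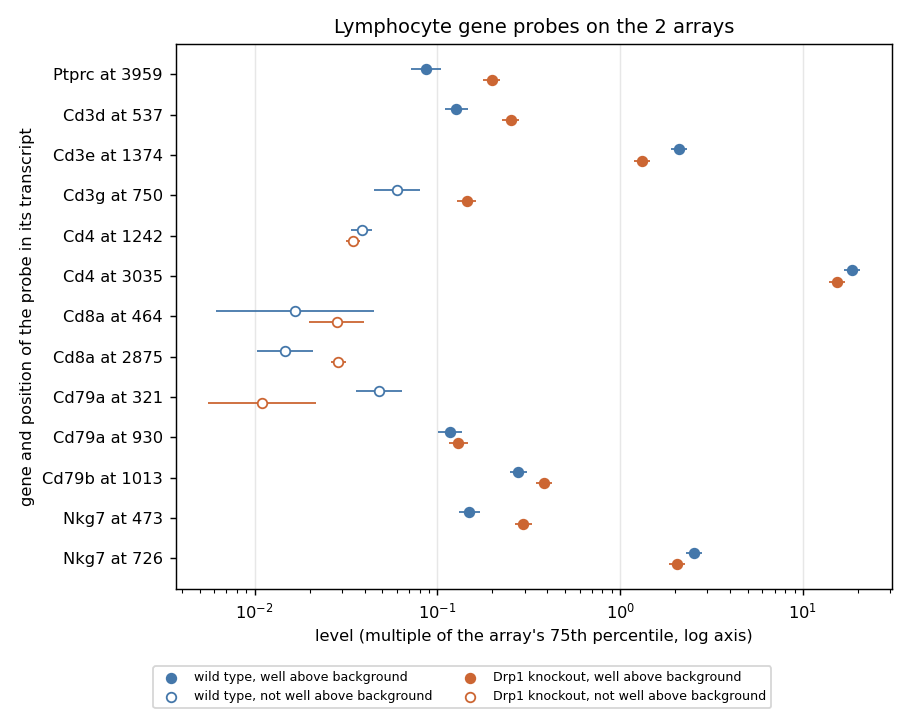
Levels of the 13 probes of the 9 lymphocyte genes on the wild type and the Drp1 knockout array, as multiples of the array's 75th percentile on a log axis. Bars are the scanner program's error estimate on the log scale, and open points were not detected. Ptprc, Cd3d and Nkg7 at 473 lie further right on the knockout array (0.198, 0.251 and 0.295), and Cd3e lies further left (1.32 against 2.10), which scaling to spike-in spots reverses. Each row has its own scale of brightness, so only the 2 points within a row are compared.

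Ptprc, the pan-leukocyte phosphatase CD45, showed the greatest difference among the measured members. Its level was 0.0865 ± 0.0160 in the wild type and 0.198 ± 0.0212 in the knockout. The knockout was the higher of the 2, by 1.20 ± 0.31 or 2.29-fold, and this difference stood at the 98.1st percentile of all measured genes. The probe is dim: its mean level stood at the 10.9th percentile of measured probes. Among probes between the 10th and 20th percentile of level, 18.7% were at least 1.5-fold higher and 14.5% lower by as much. The difference was 0.39 with normexp correction, which took it below 1.5-fold, and between 1.12 and 1.98 under the other ways of scaling.

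Of the 3 CD3 chains, Cd3d and Cd3g read higher in the knockout and Cd3e lower, the last not so with spike-in scaling. Cd3d had a level of 0.127 ± 0.0185 in the wild type and 0.251 ± 0.0262 in the knockout. This was 1.98-fold higher in the knockout, a difference of 0.98 ± 0.26 at the 97.0th percentile of measured genes. With normexp correction the Cd3d difference was 0.42, below 1.5-fold.

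Cd3g was detected only in the knockout, at 0.145 ± 0.0169. Its wild type reading was 0.0602 ± 0.0173, close to the lowest level of any detected probe of that array. The ratio of the knockout to the wild type reading was 2.41. As the wild type reading was not detected and has the error given, this ratio is no strict lower bound.

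Cd3e, by contrast, read lower in the knockout under every scaling except that to spike-in spots, which gave 0.11. Its level was 2.10 ± 0.211 in the wild type and 1.32 ± 0.133 in the knockout. The difference was -0.67 ± 0.20, or 1.59-fold lower, at the 10.4th percentile of measured genes. Before any scaling the signals of this probe were nearly equal, 967 for wild type, 955 for knockout, so its sign rests on how the arrays are set against each other. For Cd3d the unscaled signals were 58.6 and 182, and for Cd3g 27.7 and 104. The distance between the Cd3d and Cd3e differences, by contrast, does not depend on a shift of a whole array. It does depend on background correction: with normexp Cd3d stood at 0.42 and Cd3e at -0.56, against 0.98 and -0.67.

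Cd3g and Cd3d are neighbours that start in opposite directions, 1338 bases apart on chromosome 9 in the RefSeq table of GRCm38.p6, and Cd3e lies beside them within 40092 bases. Their promoters are shown because these 2 genes both read higher in the knockout. Each stretch is the 250 bases before a transcription start in RefSeq, 5′ to 3′ on the gene's strand, with matches to 6 searched hexamers in capitals. The Cd3d window is chr9:44981536-44981785 (plus strand) and the Cd3g window chr9:44980432-44980681 (minus strand), both in GRCm38.p6.
Cd3d: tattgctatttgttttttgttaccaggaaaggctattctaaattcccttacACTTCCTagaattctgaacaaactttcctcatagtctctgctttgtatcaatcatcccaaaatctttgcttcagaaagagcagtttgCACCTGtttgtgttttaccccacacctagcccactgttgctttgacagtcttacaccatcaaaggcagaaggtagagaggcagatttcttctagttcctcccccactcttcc
Cd3g: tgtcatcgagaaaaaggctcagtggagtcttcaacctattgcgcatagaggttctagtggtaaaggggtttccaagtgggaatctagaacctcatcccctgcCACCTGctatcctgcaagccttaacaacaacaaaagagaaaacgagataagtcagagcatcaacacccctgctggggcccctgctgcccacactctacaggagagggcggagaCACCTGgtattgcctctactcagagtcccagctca

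The hexamers were searched on both strands in the 8 windows of the 7 genes that the promoter table holds. GGAAGT, which contains the GGAA core of ETS-family sites, stood in windows of 4 of the 7 genes (Cd3d, Cd3e, Cd79a and Ptprc), beside 19.7% of all 32851 windows of this length. AGGAAG, which overlaps it by 5 letters, stood in those of 5 genes (the same 4 and Nkg7), beside 29.5%. The E-box CACCTG stood once in the Cd3d window, in 2 places in the Cd3g window and once in that of Cd79a, and it is in 17.2% of all windows. Another E-box, CAGCTG, stood in 0 of the 7 genes' windows and is in 13% of all. A RUNX-type core, TGTGGT, stood in that of Nkg7 (14.1% of all windows). Last, TATAAA stood in one of Ptprc (12.4%). These are matches of letters and show no binding.

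The 2 T cell co-receptors gave little that could be compared. Cd4 was measured only at position 3035, with levels of 18.5 ± 1.85 in the wild type and 15.4 ± 1.54 in the knockout. The difference was -0.27 ± 0.20, within 1.5-fold, and it was 0.51 when scaled to spike-in spots and -0.03 after loess normalization. The other Cd4 probe, at 1242, was printed in 10 copies. Its wild type spots ran from 0.0230 to 0.0659 (median 0.0385) and its knockout spots from 0.0193 to 0.0560 (median 0.0341). The ranges overlapped, and 0 of 10 wild type spots and 3 of 10 knockout spots were well above background.

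Both probes of Cd8a, the alpha chain of the CD8 co-receptor, went undetected on both arrays. The probe at 464 read 0.0166 ± 0.0165 in the wild type and 0.0281 ± 0.00965 in the knockout. At 2875, which has 10 copies, the 8 usable wild type spots ran from 0.0128 to 0.0168 with a median of 0.0149, and the 10 knockout spots from 0.0234 to 0.0370 with a median of 0.0280. The usable copies did not overlap between the arrays, but 0 usable spots were well above background on either, so no fold is given. How often the copies of other probes separate in this way was not counted. Copies within an array are not replicates, so the separation is a description only. A further 2 wild type spots of this probe read 0.126 and 0.462 and carried the scanner program's outlier mark, and they were left out. With these spots included the ranges of the arrays would overlap.

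Of the B cell receptor chains, Cd79b read 0.278 ± 0.0314 in the wild type and 0.382 ± 0.0390 in the knockout. The knockout was 1.37-fold higher, a difference of 0.46 ± 0.22 that stayed under 1.5-fold except when scaled to spike-in spots (1.24). It stood at the 88.3rd percentile of measured genes.

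Cd79a at 930, the probe of uncertain placement, read 0.117 ± 0.0174 in the wild type and 0.130 ± 0.0150 in the knockout. Its difference of 0.15 ± 0.27 was smaller than its own error estimate, and it was -0.14 with normexp correction. The Cd79a probe at 321, which the files place on chromosome 7, read 0.0480 ± 0.0138 and 0.0110 ± 0.00745, not detected on either array. The clearly placed probe of this gene therefore gave no comparison.

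The 2 probes of Nkg7, the cytotoxic granule protein, disagreed. The probe at 473 read 0.150 ± 0.0202 in the wild type and 0.295 ± 0.0305 in the knockout, a difference of 0.98 ± 0.24 or 1.97-fold higher. The probe at 726 read 2.54 ± 0.254 and 2.04 ± 0.204, a difference of -0.31 ± 0.20 or 1.24-fold lower, and 0.47 when scaled to spike-in spots. Their mean of 0.33 ± 0.16 hides this split, and it was 1.11, past 1.5-fold, with spike-in scaling. With the brightest probe alone, or with the stricter filter, Nkg7 stood at -0.31.

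**Figure D2:**
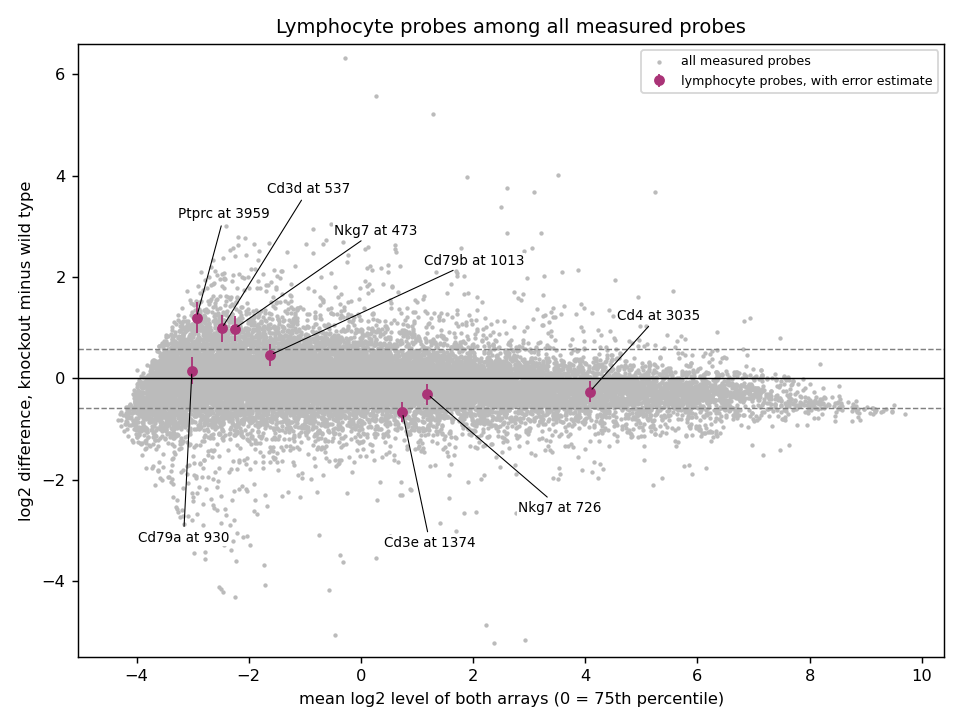
Log2 difference (knockout minus wild type) of each measured probe against its mean log2 level on the 2 arrays, where 0 is the 75th percentile. Grey points are all 19470 measured probes, magenta points the 8 measured lymphocyte probes with the scanner program's error estimate, and dashed lines mark 1.5-fold. The 3 probes past 1.5-fold higher (Ptprc, Cd3d, and Nkg7 at 473) lie on the dim side, and Cd3e, Nkg7 at 726 and Cd4 lie on the bright side and below 0, which scaling to spike-in spots reverses.

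The direction of the difference among these 8 probes is set beside their brightness here. By mean level, the 3 probes at least 1.5-fold higher stood at the 10.9th (Ptprc), 17.0th (Cd3d) and 20.2nd (Nkg7 at 473) percentile of measured probes. The 3 with negative differences stood at the 59.7th (Cd3e), 65.0th (Nkg7 at 726) and 88.3rd (Cd4) percentile. Over all measured probes, the share at least 1.5-fold higher was 18.7% between the 10th and 20th percentile of level and 14.7% between the 20th and 30th. Below the 10th percentile, where Cd79a at 930 stood, it was 8.27%, with 24.2% lower by as much. It was 8.17% between the 50th and 60th, 5.5% between the 60th and 70th and 3.13% between the 80th and 90th. The share was thus not highest among the dimmest probes. The median difference was -0.21 below the 10th percentile, and 0.01, 0.04, -0.01, -0.06 and -0.21 in the other 5 bands in order of level. A part of brightness in the members' differences was not tested. After loess normalization, which removes a trend with level, Ptprc stood at 1.27, Cd3d at 0.99 and Nkg7 at 473 at 0.97. Of the probes with negative differences, Cd3e then stood at -0.62, Nkg7 at 726 at -0.24 and Cd4 at -0.03.

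Of the 3 measured probes that hold AATAAA, 0 were at least 1.5-fold higher, against 3 of the 5 measured probes that lack it. Across the array, 6.17% of the 2903 measured probes with AATAAA were at least 1.5-fold higher and 14.7% lower, beside 9.03% and 13.2% of the 16567 without it. The medians were -0.19 and -0.09. With 8 probes the split among members is a description only.

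**Figure D3:**
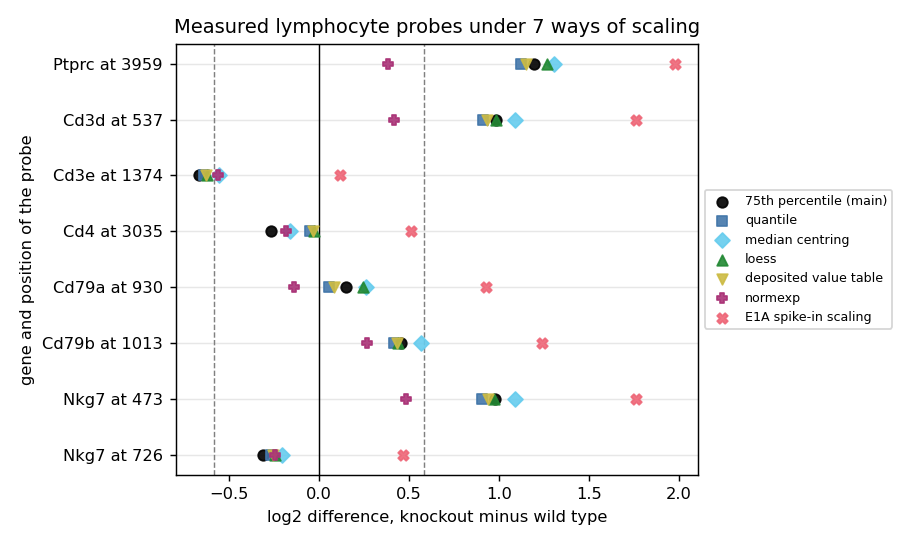
Log2 difference (knockout minus wild type) of the 8 measured lymphocyte probes under 7 ways of scaling, one symbol each, with dashed lines at 1.5-fold. Ptprc, Cd3d and Nkg7 at 473 stay above 0 throughout, from 0.39, 0.42 and 0.48 with normexp correction to 1.98, 1.76 and 1.76 with spike-in scaling. Cd3e, Cd4 and Nkg7 at 726 lie above 0 with spike-in scaling alone.

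Around the 9 genes, other lymphocyte and leukocyte genes were taken from 8 lists covering T cell receptor and co-receptor genes, T cell signalling, T cell transcription factors, B cells, plasma cells, NK and cytotoxic cells, homing and survival receptors, and pan-leukocyte genes. Together they held 137 genes on the array, of which 70 were measured. Past 1.5-fold, 19 (27.1%) were higher and 11 (15.7%) lower, beside 8.42% and 13.4% of all genes, with a median of 0.21 beside -0.11. With normexp correction 4 of the 70 (5.71%) were higher and 8 (11.4%) lower, beside 4.28% and 9.52% of all genes, and the median was 0.02. With spike-in scaling 52 (74.3%) were higher and 2 (2.86%) lower, beside 58.1% and 1.36%. Another 34 (24.8%) were detected only in the knockout and 0 only in the wild type, beside 7.2% and 1.25% of all 30165 genes. The remaining 33 (24.1%) were detected in neither, beside 40.5% of all genes. The detection level was lower for the knockout array, as given above, and its part in these counts was not tested. For such genes the wild type limit is the wild type reading or, if higher, the lowest level detected on that array. Where a fold over this limit is given below, it leaves out errors and is no strict minimum. Of several such probes of a gene, the one with the greatest fold is used. Of the 34, Cd28, Cd8b1, Bcl11b, Lef1, Tbx21, Pou2af1, Klrc1, Cxcr4, Il7r and Mzb1 did not exceed their wild type limit in the knockout. With spike-in scaling every difference is 0.78 higher, so listed genes with a negative difference smaller than that then read above 0. The shares of all genes given here also belong beside the counts of each single list below. Some of those counts lie near these shares, and the single lists are short.

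Among T cell receptor and co-receptor genes besides the members, 2 of 6 measured were at least 1.5-fold higher and 1 lower, with a median of 0.23. Cd2, an adhesion receptor of T and NK cells, differed by 0.80 ± 0.25 and Cd5, a brake on receptor signalling, by 0.77 ± 0.36. Cd6, a relative of Cd5, was lower by the same measure at -0.87 ± 0.38, while Thy1 stood at 0.24 and Cd7 at 0.23. With normexp correction Cd2 stood at 0.40, Cd5 at 0.09 and Cd6 at -0.60, so 0 were past 1.5-fold higher and 1 lower. The median was then 0.06. Cd247, the zeta chain of the T cell receptor, Cd28 and Cd8b1 were detected only in the knockout. Cd247 stood 1.12-fold above its wild type limit, and Cd28 and Cd8b1 did not exceed theirs. Cd27, Ctla4 and Trat1 were detected in neither.

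Genes of T cell receptor signalling held 2 of 11 measured that were at least 1.5-fold higher and 2 that were lower, with a median of 0.28. With normexp correction 0 were higher and 1 lower. Skap1, an adaptor of T cell adhesion, differed by 0.71 ± 0.30. The Src-family kinase Lck, which phosphorylates the CD3 chains, stood at 0.56 ± 0.22, under 1.5-fold, and the kinase Zap70, which docks on phosphorylated CD3, at -0.60 ± 0.14. Plcg1, which is expressed in many cell types, averaged -1.32 from probes at -2.40 and -0.24. Another 6 genes, among them the adaptors Lat and Lcp2, were detected only in the knockout. Lcp2 stood 1.55-fold and Lat 1.37-fold above the wild type limit.

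Of the list of T cell transcription factors, 5 of 14 were measured, with 0 at least 1.5-fold higher, 2 lower and a median of -0.42. With normexp correction 0 were higher and 1 lower. Themis, a signalling protein needed for T cell selection in the thymus, stood at -0.91 ± 0.24, Ikzf3 at -0.69 ± 0.22, Tox at -0.25 ± 0.16 and Zbtb7b at -0.06 ± 0.13. With spike-in scaling the median was 0.36. Tcf7, Lef1, Bcl11b, Ikzf1, Runx3 and Tbx21 were detected only in the knockout, and Foxp3, Gata3 and Eomes in neither. Tcf7 stood 1.39-fold, Runx3 1.28-fold and Ikzf1 1.16-fold above the wild type limit, and Lef1, Bcl11b and Tbx21 did not exceed it.

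B cell genes besides the CD79 chains held 3 of 10 measured that were at least 1.5-fold higher and 2 lower, with a median of 0.27. With normexp correction 1 was higher and 2 lower. The adaptor Blnk, which links the B cell receptor to its kinases, differed by 2.22 ± 0.21 and was 4.66-fold higher. Cd24a differed by 0.93 ± 0.25 and Vpreb3 by 0.68 ± 0.24, while Tnfrsf13c, the receptor for the survival factor BAFF, stood at -1.39 ± 0.39. The kinase Syk averaged -1.59 from probes at -3.45 and 0.27, so its direction is unsettled. Of the 20 genes, 6 were detected in neither, among them Pax5, Ebf1 and Blk. Another 4 were detected only in the knockout, among them Ms4a1, which encodes CD20 and stood 1.29-fold above its wild type limit. Blnk is also expressed in macrophages, and Cd24a in bile duct cells.

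Plasma cell and immunoglobulin genes were few, with 3 of 7 on the array measured. Jchain, which joins secreted IgA and IgM, read 0.288 in the wild type and 0.659 in the knockout, a difference of 1.19 ± 0.22. Prdm1, the plasma cell factor Blimp-1, stood at -0.71 ± 0.38 and Sdc1, which hepatocytes also express, at -0.10 ± 0.20. Mzb1 was detected only in the knockout, without exceeding its wild type limit.

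NK and cytotoxic genes besides Nkg7 held 2 of 8 measured that were at least 1.5-fold higher and 1 lower, with a median of -0.13. With normexp correction 1 was higher and 0 lower. The chemokine Ccl5 read 1.63 in the wild type and 6.62 in the knockout, a difference of 2.02 ± 0.20, and the granule protease Gzma differed by 0.82 ± 0.22. Klra1, an NK receptor of the Ly49 family, stood at -0.66 ± 0.21, Gzmk at -0.49 ± 0.23 and Prf1, the pore-forming protein perforin, at -0.22 ± 0.23. Probes of the closely similar Klra genes may share signal, so single members are uncertain. Gzmb, Il2rb and Klrd1 were detected only in the knockout, at 2.15-fold, 2.00-fold and 1.94-fold above their wild type limits. Of the 27 listed genes on the array, 10 were detected in neither, beside 40.5% of all genes. Among these were the NK receptor genes Ncr1, Klrb1c and Klrk1, and Ifng and Fasl.

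Homing and survival receptors held 5 of 11 measured that were at least 1.5-fold higher and 2 lower, with a median of 0.31. With normexp correction 1 was higher and 2 lower. Ccr7, the receptor that leads lymphocytes and dendritic cells to lymph nodes, read 0.0978 in the wild type and 0.291 in the knockout, a difference of 1.57 ± 0.32. Il2rg, the shared cytokine receptor chain, differed by 0.83 ± 0.25. The sphingosine phosphate receptors S1pr5 and S1pr1, of which S1pr1 is also an endothelial gene, stood at -1.06 ± 0.21 and -0.83 ± 0.20. Cd69, an early activation marker, was detected only in the knockout and stood 5.55-fold above its wild type limit.

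Pan-leukocyte genes besides Ptprc were nearly all measured, at 17 of 18. At least 1.5-fold higher were 4, namely Cytip (1.06 ± 0.32), Arhgap15 (1.02 ± 0.33), Cd53 (0.91 ± 0.34) and Evi2a (0.72 ± 0.23), and 0 were lower, with a median of 0.30. With normexp correction 0 of the 17 were past 1.5-fold, and these 4 stood at 0.32, 0.30, 0.25 and 0.38. Vav1, which also stands in the T cell signalling list, was next at 0.54 ± 0.15. Ptprcap, whose protein associates with CD45, stood at -0.01.

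Markers of other cells are given beside these values, and 8.42% of all measured genes were at least 1.5-fold higher and 13.4% lower. A summed level over probes of different brightness is set by its brightest probes and is given as a description only. Macrophage and Kupffer cell markers, which share Ptprc with lymphocytes, had 4 of 14 measured at least 1.5-fold higher and 0 lower, with a median of 0.23 and a summed level of 94.9 in the wild type and 118 in the knockout. They were led by Trem2 at 2.43 ± 0.21, Marco at 1.65 ± 0.20 and Lyz2 at 1.38 ± 0.21. Differences were above 0 for 11 of the 14, but several were small, with Vsig4 at 0.16, C1qa at 0.10 and C1qc at 0.01. Timd4 stood at -0.42 ± 0.21 and Clec4f at -0.16 ± 0.20. Of the summed level, Cd5l gave 34.8 in the wild type and 41.5 in the knockout, and Marco 5.33 and 16.7. Dendritic cell markers had 2 of 7 higher and 1 lower (median 0.18, summed level 56.0 and 40.4, of which Cst3, which many cell types express, gave 41.6 and 31.1), with Itgax at 1.16 ± 0.25, and Xcr1 was detected in neither. Neutrophil markers, by contrast, had 0 of 7 higher and 4 lower (median -0.70, summed level 94.7 and 67.7, of which Csf3r alone gave 88.4 and 63.8), and Mpo and Ltf were detected in neither. The part of these cells in the Ptprc and pan-leukocyte values was not tested.

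Sinusoidal endothelial markers had 2 of 9 higher and 0 lower, with a median of 0.17 and summed levels of 43.5 and 40.7. Of these sums, Clec4g alone gave 31.0 and 28.3. Erythroid markers were lower at 4 of 4 measured (median -0.90, summed level 175 and 98.2), with Hba-a1 at -0.79. Blood carried in the vessels holds both red cells and lymphocytes, and its part in the lymphocyte values was not tested. Hepatocyte markers had 2 of 10 higher and 4 lower, with a median of -0.57 and summed levels of 3842 and 2613. Of the muscle markers, 2 were measured and both were lower (median -2.77), with Tnni2 at -4.18. The part of muscle RNA in the lymphocyte values was not tested. Scaled to spike-in spots, the macrophage median was 1.01, the neutrophil median 0.08, the hepatocyte median 0.21 and the erythroid median -0.12, where all genes had 0.67. The same scaling gave medians of 0.65 for the NK list and 0.68 for the plasma cell list. With normexp correction the medians were -0.13 for T cell signalling, -0.09 for B cell genes and -0.12 for dendritic cell markers, each of the opposite sign. It left 3 of 14 macrophage markers higher, 3 of 7 neutrophil markers lower, 0 of 10 hepatocyte markers lower and 4 of 4 erythroid markers lower. Over all genes it left 4.28% higher and 9.52% lower.

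**Figure D4:**
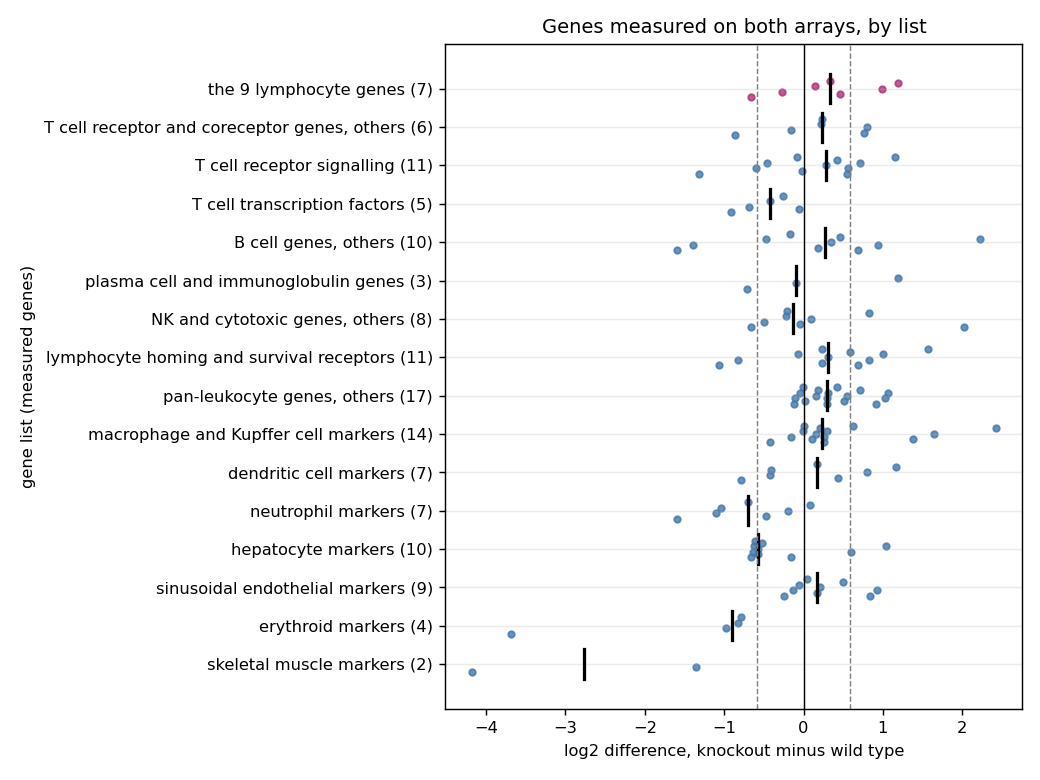
Log2 difference (knockout minus wild type) of each gene measured on both arrays, by gene list, with the number measured in brackets. Black bars are medians and dashed lines mark 1.5-fold. The 7 measured lymphocyte genes (top row) have a median of 0.33 and span 0, and the T cell transcription factors, neutrophil, hepatocyte and erythroid lists have medians of -0.42, -0.70, -0.57 and -0.90. Of these 4, only the erythroid median stays below 0 with spike-in scaling.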

How the data were processed

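Total RNA of mouse liver was labelled with Cy3 and hybridised to Agilent arrays, with both arrays on 1 slide. Spot intensities were deposited as written by Agilent Feature Extraction, background-subtracted and detrended per the file headers, which give version 10.7.1.1 (9.5.1.1 in the submitters' processing notes). Beside them, a deposited value table has normalized intensities whose making is not given in the sources used here, and served as an alternative. Flags of the scanner program, deposited as 0 or 1, set the filters.

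Spots marked as outliers (183 wild type, 190 knockout) were not used. Signals were divided by the array's 75th percentile, log2-transformed and averaged over copies. A probe was well above background if 50% or more of the usable spots carried that mark. A gene's value is the mean over probes measured on both arrays. For genes detected on 1 array alone, a bound sets the bright value against the higher of the dim value and the lowest level well above background. Where the dim value is the higher, the bound is the ratio of the readings. The bound leaves out the errors of the readings and is no strict minimum. Of several such probes of a gene, the greatest bound is used. Processing used R 4.3.3 with limma 3.58.1 and Python 3.11.15 with pandas 2.3.3. The counting was also run on simulated data with planted changes and the spread of repeated spots alone. That run checks the counting only, since it leaves out the larger errors of dim probes and the background correction.

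Members and lists were chosen with earlier results of these data known. All 9 genes and 13 probes are named, and up to 5 measured genes of each of 15 lists by the greatest difference. Some genes this rule names are not reported here. Genes below background, further genes with negative or small differences in the lists, and Dnm1l were named after their values were seen. The 9 alternatives were quantile, median, loess (span 0.3) and spike-in scaling, normexp (offset 50), 2 other filters on dim probes, one probe (the brightest) for each gene, and the deposited table.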

Additional observations from a re-analysis of the deposited data

How the results depend on the processing

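Of 60 values of single genes under the 9 alternatives, 43 moved by less than the error estimate of the gene and 16 by more, and Cd3e went from lower to higher, at 0.11, with E1A spike-in scaling. Many of the 43 could not move. The other filters and the choice of the brightest probe leave a gene's value as it was wherever they keep the same probes. The count of 43 is therefore no measure of stability. The sign changed in 6 of the 60, of which only that of Cd3e was of a gene past 1.5-fold. Of the others, Cd4 was 0.51 with spike-in scaling, Cd79a -0.14 with normexp and -0.99 with no filter, and Nkg7 -0.31 with the stricter filter and with the brightest probe. Spike-in scaling shifts the median of all genes by 0.78, loess by 0.11, median centring by 0.11 and no filter by -0.20, and each of the other settings by less than 0.1. The median difference of the members was 1.11 with spike-in scaling, 0.12 with normexp correction, 0.15 with the brightest probe per gene and -0.29 with the stricter filter on dim probes, which left 4 members. Members at least 1.5-fold higher numbered 5 with spike-in scaling, 0 with normexp, 4 of 9 with no filter and 0 of 4 with the stricter filter. Members at least 1.5-fold lower numbered 0 with median centring, spike-in scaling and normexp, and 2 with no filter. Over all genes, where 1296 were higher and 2060 lower, the counts were 8946 and 209 with spike-in scaling, 3164 and 11307 with no filter, 658 and 1465 with normexp, and 655 and 1269 with the stricter filter. The loss of members under the stricter filter comes from Ptprc, Cd3d and Cd79a, whose probes it removes along with that of Nkg7 at position 473, and with no filter Cd3g, Cd8a and the dim Cd79a and Cd4 probes enter. Other causes were not tested. Most members lie near background, which limits what 1 array per group shows, and Cd8a could not be measured. No paired analysis was possible because each group held 1 array and no test was made.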
